A study of Homo sapiens with 4 samples.

Results

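The integrated stress response and the unfolded protein response are carried here by 35 genes, followed after knockdown of NIPBL in the human gastric cancer line NUGC3. The genes were picked by symbol from known pathway biology, with earlier results of these data already known. They were found by Ensembl identifier and gene name in the deposited table, where each of the 35 had 1 row among 53777 gene rows. They form an ATF4 arm of 15 genes, from ATF4 to VLDLR, and an endoplasmic reticulum (ER) chaperone arm of 20 genes, from HSPA5 to MANF. RNA was sequenced from 4 libraries of transfected NUGC3 cells, 2 of them scramble controls and 2 with a short hairpin against NIPBL. The hairpins were different, named 1 and 7 in the labels, and each gave a single library. DOX and combined stand in every label without explanation. Scramble 2 has the name of scramble 1 plus a suffix, possibly a repeat, and nothing says that libraries came from separate cultures. The p-values below thus rest on the spread within the 2 groups of 2 libraries. That spread may be technical, and in the knockdown pair it includes any difference between the 2 hairpins.

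When unfolded proteins gather in the ER, 3 membrane sensors respond. The kinase PERK phosphorylates the translation factor eIF2, which slows protein synthesis while the ATF4 message is translated more, and ATF4 then switches on genes of amino acid supply and of feedback. Other kinases reach the same step when amino acids run short or viral RNA is sensed, hence the name integrated stress response. The sensor IRE1 splices the XBP1 message and the sensor ATF6 is cut to a free transcription factor, and their products raise ER chaperones, folding enzymes and the machinery that removes misfolded proteins. In a secreting epithelium such as the stomach the ER carries a heavy folding load. Because ATF4 and XBP1 are controlled in translation and splicing, the abundance of their messages is not a reading of their activity, and a value per gene does not separate spliced from unspliced XBP1.

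Values are the authors' FPKM, a read abundance per transcript length and library size. Summed FPKM lay between 682076 and 749446 per library, and the sequencing depth is unknown. NIPBL, which loads the cohesin ring onto chromosomes, had 23.9 and 23.1 FPKM in scramble against 7.27 FPKM (hairpin 1) and 9.17 FPKM (hairpin 7), and fell (log2 change -1.42 ± 0.14, SE, limma, adjusted p = 0.0218). The epithelial marker genes checked, 6 in all, summed to between 4214 and 5181 FPKM per library, while of the 4 leukocyte, 2 endothelial and 4 fibroblast genes in the table only COL1A1 reached 1 FPKM, at 5.75 to 9.39 FPKM. Tests covered the 12834 genes whose 4-library mean reached 1 FPKM. Fold differences are given as log2(FPKM + 1), knockdown less scramble, a scale on which low genes appear to change less than they do. In bulk RNA a change in the share of cells and a change in RNA per cell cannot be told apart.

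Of the 35 genes 34 entered the test, and VLDLR, the receptor gene for very low density lipoprotein, was too low. A single gene passed, PPP1R15A, which is 2.94% of the tested members, where 2.56% of all genes passed in either direction, 1.45% as higher and 1.11% as lower (limma, adjusted p under 0.05). In the ER chaperone arm 0 of 20 passed (4 higher and 1 lower at an unadjusted p under 0.05; limma). At an unadjusted p under 0.05 there were 6 members higher and 4 lower, or 29.4%, beside 26.4% of all genes (13.6% higher and 12.8% lower). In 22 members the hairpins were both above or both below the scramble pair, or 64.7% beside 60.3% of all genes, with 10 above (29.5% of all genes) and 12 below (30.8%). These shares, with all 4 libraries in the fit, are close to those of the whole transcriptome. Leaving out scramble 1 or scramble 2 left 0 members and 0 genes of the transcriptome passing (1 member and 1060 or 1052 genes at an unadjusted p under 0.05), whereas leaving out a hairpin raised the counts. With a hairpin left out, the spread came from the scramble pair alone, and with a scramble library left out from the hairpin pair alone. Over all genes tested the median log2 gap of that pair was 0.075, against 0.23 between the hairpins. Those counts are therefore not comparable with the fit of all 4 libraries.

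**Figure D1:**
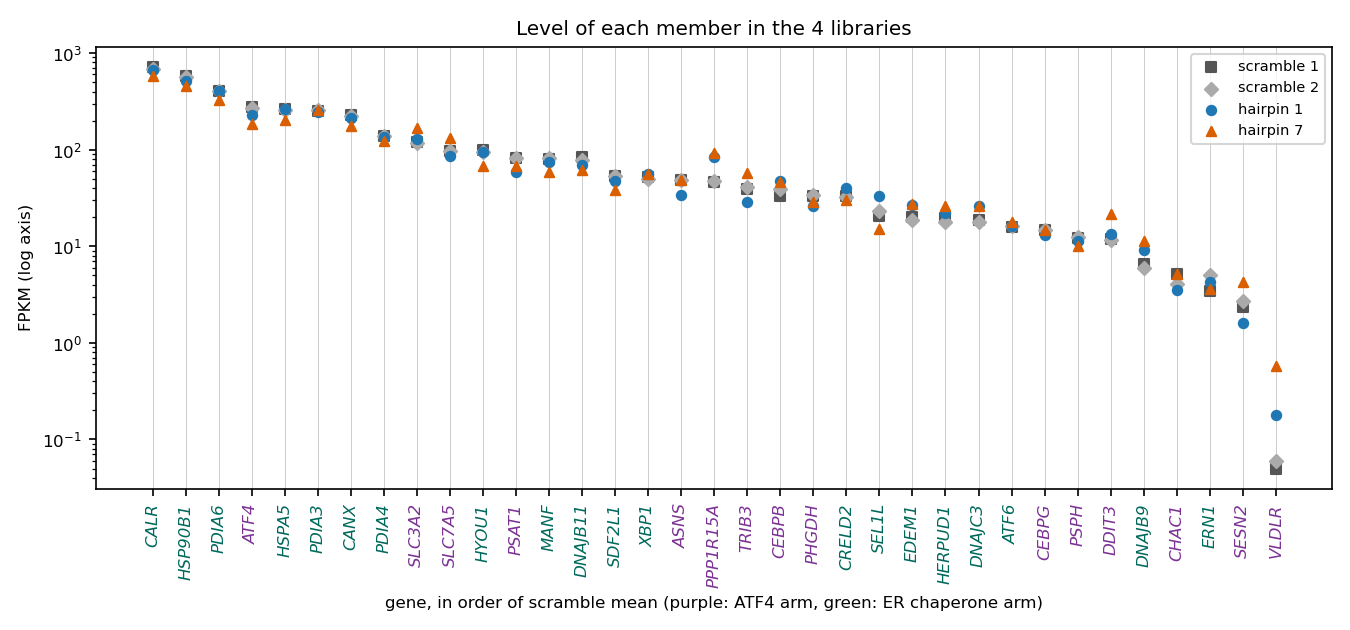
FPKM of each of the 35 genes (log axis) in the 4 libraries, in order of the scramble mean, with squares and diamonds for scramble and circles and triangles for hairpins 1 and 7. The order runs from CALR at a scramble mean of 703 FPKM down to VLDLR under 1 FPKM, and the ER chaperone arm holds most of the highest places.

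The levels, which are per transcript length and so roughly comparable between genes, spanned a wide range. CALR (calreticulin) led in the scramble libraries with 716 and 690.3 FPKM, followed by HSP90B1 with 584 and 562 FPKM and PDIA6 with 403 and 406 FPKM. ATF4 came next at 279 and 270.2 FPKM, above HSPA5 at 263 and 259.7 FPKM and PDIA3 at 253 and 258 FPKM. These 6 did not overlap with their neighbours in the order. Rows named as PDIA3 pseudogenes summed to at most 12.1 FPKM in a library, so the place of PDIA3 just below HSPA5 is uncertain. Lower down, the scramble ranges overlapped for SLC7A5 with HYOU1, CEBPB with PHGDH and CHAC1 with ERN1, so neither of each pair can be placed first. DNAJB11 overlapped with both PSAT1 and MANF, and HERPUD1 with both EDEM1 and DNAJC3. The lowest were SESN2 at 2.33 and 2.68 FPKM and VLDLR at 0.05 and 0.06 FPKM. ATF4 stood at rank 4 of 35 in scramble and at rank 6 with either hairpin.

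Some promoters of the ER chaperone arm carry a sequence that was found before no searched gene of the ATF4 arm. The ER stress element, which ATF6 and XBP1 bind together with the factor NF-Y, reads CCAAT and CCACG with 9 bases of any kind between them. It was searched on both strands of the 250 bases before each start in RefSeq (GRCh38.p14), which held 48 starts for 33 of the 35 genes, PSPH and PDIA3 being the others. It stood before 7 of 19 ER chaperone genes, namely HSPA5, HSP90B1, CALR, CANX, CRELD2, PDIA6 and XBP1, and before 0 of 14 genes of the ATF4 arm, with 0.0916% of all 27305 genes in the table holding it. The element was first described at promoters of this chaperone family, so its presence there is background and not a result of these libraries. The sites are shown because they mark which members share the element, written in the direction of the motif with its fixed letters in capitals:
HSPA5 (chr9:125241386-125241414, minus strand): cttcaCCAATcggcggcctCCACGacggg
HSP90B1 (chr12:103930211-103930239, plus strand): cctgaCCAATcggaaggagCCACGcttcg
HSP90B1 (chr12:103930316-103930344, minus strand): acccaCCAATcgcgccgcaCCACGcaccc
CALR (chr19:12938379-12938407, minus strand): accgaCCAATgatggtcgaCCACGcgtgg
CANX (chr5:179698773-179698801, plus strand): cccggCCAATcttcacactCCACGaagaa
CRELD2 (chr22:49918549-49918577, minus strand): atggcCCAATccgagttcgCCACGagagg
PDIA6 (chr2:10812848-10812876, minus strand): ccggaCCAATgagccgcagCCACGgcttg
XBP1 (chr22:28800598-28800626, minus strand): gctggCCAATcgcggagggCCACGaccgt

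A shorter variant, ATTGG and CCACG with 1 base of any kind between them, stood before HERPUD1, HYOU1 and SDF2L1 of the ER chaperone arm, before 0 of 14 genes of the ATF4 arm and before 0.0659% of all genes in the table. HYOU1 held it at 2 places, 1 of which overlaps the only match among the members to TGACGTGG, the core of the XBP1-bound UPR element (0.78% of all genes). It is shown for the members that held it:
HERPUD1 (chr16:56932020-56932040, plus strand): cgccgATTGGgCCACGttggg
HYOU1 (chr11:119057269-119057289, plus strand): tactcATTGGaCCACGtccca
HYOU1 (chr11:119057375-119057395, plus strand): ctgggATTGGaCCACGtcacg
SDF2L1 (chr22:21642109-21642129, minus strand): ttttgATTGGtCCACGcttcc

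The ATF4 arm has its own element, bound by ATF4 with C/EBP partners, whose core was searched as TGATGNAA. It stood before ASNS, CEBPG and CHAC1, or 3 of 14 genes of that arm, before HERPUD1 of the other arm, and before 3.89% of all genes. A match is a description of letters and not a measured binding site, and genes without a match may hold the element outside the window. The matches in the ATF4 arm are shown because the arm is named for this factor:
ASNS (chr7:97872464-97872481, minus strand): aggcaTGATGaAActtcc
CEBPG (chr19:33374066-33374083, plus strand): gcgtcTGATGcAAcctgc
CHAC1 (chr15:40953257-40953274, minus strand): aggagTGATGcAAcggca

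**Figure D2:**
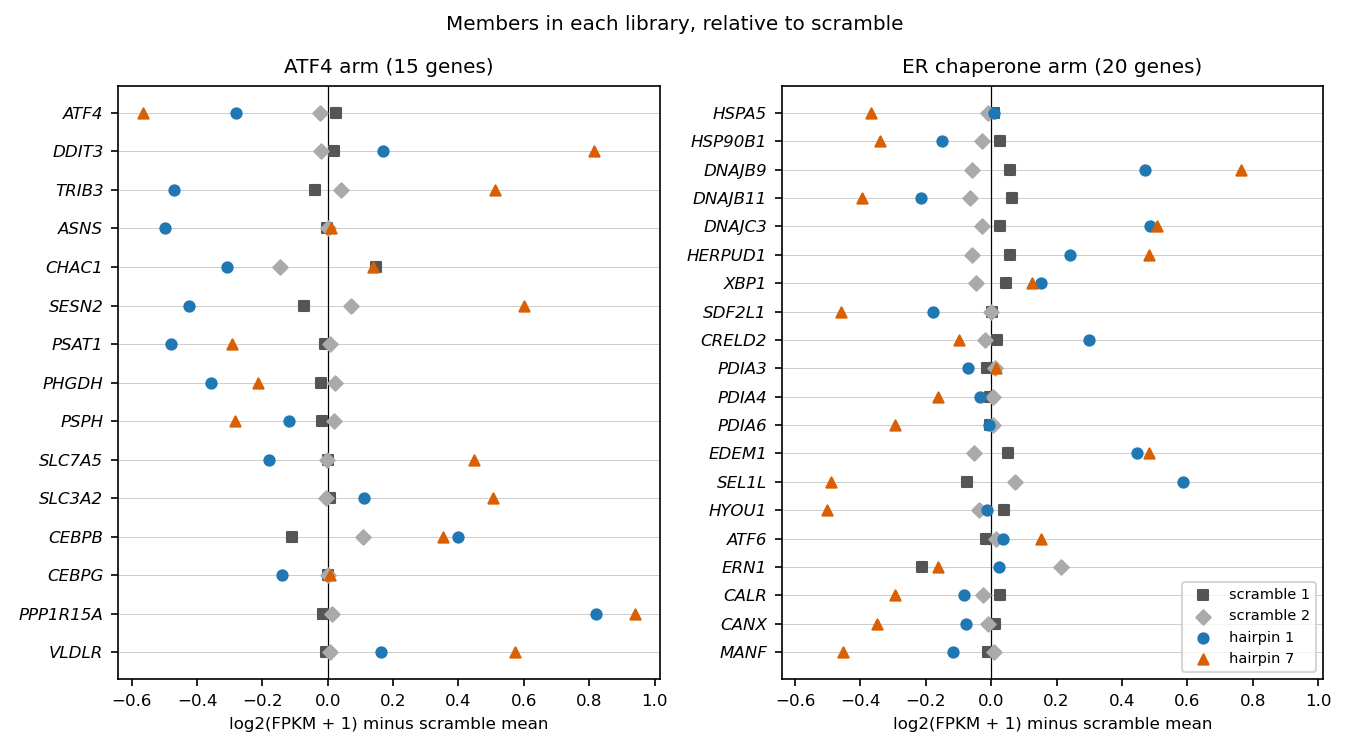
Each library's log2(FPKM + 1) minus the mean of the scramble libraries, for the 15 genes of the ATF4 arm (left) and the 20 of the ER chaperone arm (right). PPP1R15A is higher with both hairpins, TRIB3 and SESN2 have hairpin 1 below and hairpin 7 above scramble, and most chaperone genes have hairpin 7 farthest to the left.

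PPP1R15A (ENSG00000087074, chromosome 19) encodes GADD34, the subunit that directs a phosphatase to eIF2 and so ends the block on protein synthesis. Scramble libraries held 46.7 and 47.7 FPKM, hairpin 1 held 84.2 FPKM and hairpin 7 held 91.5 FPKM. Both hairpins were above both scramble libraries, by more than the spread within either group. The mean rose 1.86-fold, 47.2 ± 0.686 FPKM in scramble against 87.8 ± 5.20 FPKM in knockdown (SD, n = 2 each). On the log2 scale this was 0.88 ± 0.09 (SE; adjusted p = 0.0283 by limma). Its call was lost without scramble 1 or scramble 2 (log2 changes 0.87 and 0.90), fits in which the spread came from the hairpin pair alone. It was also lost with no filter on low values (log2 change 0.88, limma, adjusted p = 0.107), where 1 gene of the transcriptome passed.

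The transcription factor genes of the ATF4 arm did not share a direction. ATF4 itself (chromosome 22) was at 279 and 270.2 FPKM in scramble, 226 FPKM with hairpin 1 and 185 FPKM with hairpin 7. Both hairpins were below both scramble libraries, at 82.2% and 67.4% of the scramble mean (log2 change -0.42 ± 0.13, SE, limma, adjusted p = 0.133). DDIT3, which encodes CHOP, a factor that promotes cell death under lasting stress, was at 11.9 and 11.6 FPKM in scramble, 13.3 FPKM with hairpin 1 and 21.4 FPKM with hairpin 7. Hairpin 7 stood apart at 182% of the scramble mean and hairpin 1 at 114% (log2 change 0.49 ± 0.23, SE, limma, adjusted p = 0.249). DDIT3 lies opposite to MARS, and since the strand setting is not given their reads cannot be told apart.

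CEBPB and CEBPG encode C/EBP proteins that pair with ATF4 on DNA. CEBPB was at 33.4 and 39.0 FPKM in scramble, 47.8 FPKM with hairpin 1 and 46.3 FPKM with hairpin 7, so the groups did not overlap and the hairpins nearly coincided (log2 change 0.37 ± 0.11, SE, limma, adjusted p = 0.131). CEBPG was at 14.60 FPKM in each of the scramble pair, 13.17 FPKM with hairpin 1 and 14.67 FPKM with hairpin 7. None of the 4 factor genes passed the test.

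The other feedback and stress regulator genes, 3 besides PPP1R15A, differed more between the hairpins than between the groups. TRIB3, a pseudokinase gene induced by ATF4 and CHOP that restrains ATF4 in turn, was at 39.1 and 41.4 FPKM in scramble, 28.8 FPKM with hairpin 1 and 57.7 FPKM with hairpin 7. Hairpin 1 was below and hairpin 7 above both scramble libraries, a 2.01-fold gap between the hairpins, and the fitted change was 0.02 ± 0.33 (SE, limma, adjusted p = 0.975). SESN2, whose product senses leucine and restrains mTORC1, showed the same arrangement at a low level. It was at 2.33 and 2.68 FPKM in scramble, 1.61 FPKM with hairpin 1 and 4.31 FPKM with hairpin 7, or 2.68-fold between hairpins. CHAC1, a gene for a glutathione-degrading enzyme, was at 5.16 and 4.03 FPKM in scramble, 3.50 FPKM with hairpin 1 and 5.13 FPKM with hairpin 7, so hairpin 7 lay within the scramble range.

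The 4 amino acid synthesis genes all had a fitted change below 0 (51.7% of all genes did), and none passed. PHGDH, PSAT1 and PSPH encode the enzymes that make serine from a glycolysis intermediate, in that order. PHGDH was at 33.01 and 34.03 FPKM in scramble and 26.0 and 28.8 FPKM with hairpins 1 and 7 (log2 change -0.29 ± 0.10, SE, limma, adjusted p = 0.167). PSAT1 was at 82.0 and 82.9 FPKM in scramble and 58.8 and 67.2 FPKM with hairpins 1 and 7 (log2 change -0.39 ± 0.11, SE, limma, adjusted p = 0.112). PSPH was at 12.2 and 12.5 FPKM in scramble and 11.3 and 9.96 FPKM with hairpins 1 and 7. For these 3 genes both hairpins were below both scramble libraries. ASNS, the asparagine synthetase gene, was at 48.68 and 48.75 FPKM in scramble, 34.20 FPKM with hairpin 1 and 49.07 FPKM with hairpin 7. Its lower value was seen with hairpin 1, at 70.2% of the scramble mean, while hairpin 7 was at 101%.

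SLC7A5 and SLC3A2 encode the light and heavy chains of a transporter that brings leucine and other large amino acids into the cell. SLC3A2 was at 119 and 118 FPKM in scramble, 128 FPKM with hairpin 1 and 168 FPKM with hairpin 7. SLC7A5 was at 97.1 and 96.8 FPKM in scramble, 85.4 FPKM with hairpin 1 and 133 FPKM with hairpin 7. Both chains were higher with hairpin 7, at 142% and 137% of the scramble mean, whereas hairpin 1 stood at 108% and 88.1%. Neither passed (log2 changes 0.31 ± 0.15 and 0.13 ± 0.22, SE, limma, adjusted p = 0.274 and 0.732). VLDLR was at 0.05 and 0.06 FPKM in scramble, 0.18 FPKM with hairpin 1 and 0.57 FPKM with hairpin 7, all under the level at which genes were tested.

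The sensor and factor genes of the ER arm lay near their scramble levels. ATF6 was at 15.67 and 16.02 FPKM in scramble, 16.27 FPKM with hairpin 1 and 17.71 FPKM with hairpin 7. XBP1 was at 52.35 and 49.12 FPKM in scramble, 56.46 FPKM with hairpin 1 and 55.34 FPKM with hairpin 7. ERN1, which encodes IRE1, was at 3.46 and 4.99 FPKM in scramble and 4.26 and 3.62 FPKM with hairpins 1 and 7, inside the scramble range. The fitted log2 changes of the 3 genes lay between -0.07 and 0.14 and none passed.

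The abundant lumenal chaperones were lowest with hairpin 7. HSPA5, which encodes BiP, the HSP70 chaperone that also holds the stress sensors inactive, was at 262.87 and 259.67 FPKM in scramble, 263.05 FPKM with hairpin 1 and 202.27 FPKM with hairpin 7. Hairpin 1 was level with scramble and hairpin 7 at 77.4% of its mean (log2 change -0.18 ± 0.15, SE, limma, adjusted p = 0.487). HSP90B1, the ER form of HSP90, was at 584 and 562 FPKM in scramble, 516 FPKM with hairpin 1 and 452 FPKM with hairpin 7 (log2 change -0.25 ± 0.12, SE, limma, adjusted p = 0.256). HYOU1, a nucleotide exchange factor for BiP, was at 98.8 and 93.7 FPKM in scramble, 95.4 FPKM with hairpin 1 and 67.7 FPKM with hairpin 7. SDF2L1, found in a complex with BiP and J proteins, was at 53.2 and 53.1 FPKM in scramble, 46.8 FPKM with hairpin 1 and 38.4 FPKM with hairpin 7. Hairpin 7 was thus below both scramble libraries for each of these 4 genes, while hairpin 1 was below both for HSP90B1 and SDF2L1.

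The genes of J proteins, which deliver clients to BiP, lay on both sides of scramble, and none passed. DNAJB9, which encodes ERdj4, was at 6.55 and 5.96 FPKM in scramble, 9.04 FPKM with hairpin 1 and 11.3 FPKM with hairpin 7 (log2 change 0.62 ± 0.15, SE, limma, adjusted p = 0.0929). DNAJC3, which encodes p58IPK, was at 18.5 and 17.8 FPKM in scramble, 25.8 FPKM with hairpin 1 and 26.2 FPKM with hairpin 7 (log2 change 0.50 ± 0.09, SE, limma, adjusted p = 0.0678). DNAJB11, which encodes ERdj3, was at 84.7 and 77.5 FPKM in scramble, 69.8 FPKM with hairpin 1 and 61.4 FPKM with hairpin 7 (log2 change -0.30 ± 0.11, SE, limma, adjusted p = 0.175). In each of the 3 both hairpins were on one side of both scramble libraries, above for DNAJB9 and DNAJC3 and below for DNAJB11. DNAJB9 shares its locus with THAP5 and PNPLA8 on the opposite strand, so part of its reads could belong to them.

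Genes of ER-associated degradation, the removal of misfolded proteins from the ER, lay above scramble with hairpin 1 in all 3 cases. Above the scramble mean with hairpin 1 were also 50.9% of all genes and 16 of the 26 tested degradation genes taken up later. EDEM1, a lectin-like protein gene for the disposal of glycoproteins, was at 20.2 and 18.8 FPKM in scramble, 26.9 FPKM with hairpin 1 and 27.6 FPKM with hairpin 7 (log2 change 0.47 ± 0.10, SE, limma, adjusted p = 0.079). HERPUD1, a scaffold of the degradation complex, was at 19.4 and 17.8 FPKM in scramble, 22.1 FPKM with hairpin 1 and 26.4 FPKM with hairpin 7 (log2 change 0.36 ± 0.13, SE, limma, adjusted p = 0.164). Both hairpins were above both scramble libraries for EDEM1 and HERPUD1, and neither gene passed. SEL1L, the adaptor of the ubiquitin ligase HRD1, was at 20.65 and 22.99 FPKM in scramble, 33.2 FPKM with hairpin 1 and 15.2 FPKM with hairpin 7. There the hairpins stood 2.18-fold apart on opposite sides of scramble. On the log2(FPKM + 1) scale this gap (-1.08) was the widest between hairpins among the 34 members tested. As a ratio the gap was wider for the low gene SESN2 (2.68-fold). The fitted change of SEL1L was 0.05 ± 0.36 (SE, limma, adjusted p = 0.946).

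The disulfide isomerase and lectin chaperone genes stayed near scramble with hairpin 1, and none passed. PDIA6 was at 403.37 and 405.81 FPKM in scramble, 402.50 FPKM with hairpin 1 and 329.42 FPKM with hairpin 7. PDIA4 was at 138 and 139 FPKM in scramble and 136 and 124 FPKM with hairpins 1 and 7. PDIA3, which works with the lectin chaperones, was at 253.13 and 257.72 FPKM in scramble, 243.03 FPKM with hairpin 1 and 258.13 FPKM with hairpin 7, and rows named as its pseudogenes summed to at most 12.1 FPKM in a library. CALR was at 716 and 690.3 FPKM in scramble, 664 FPKM with hairpin 1 and 573 FPKM with hairpin 7, and CANX (calnexin) at 228 and 225 FPKM in scramble and 215 and 177 FPKM with hairpins 1 and 7. Apart from PDIA3, hairpin 7 was the lowest library for each of them, at between 78.3% for CANX and 89.3% for PDIA4 of the scramble mean.

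MANF and CRELD2 encode proteins that are retained in the ER or secreted under stress. MANF was at 81.0 and 82.0 FPKM in scramble, 75.1 FPKM with hairpin 1 and 59.2 FPKM with hairpin 7 (log2 change -0.29 ± 0.14, SE, limma, adjusted p = 0.265). CRELD2 was at 33.0 and 32.2 FPKM in scramble, 40.4 FPKM with hairpin 1 and 30.4 FPKM with hairpin 7, on opposite sides of the scramble libraries. Both genes were lower with hairpin 7 than with hairpin 1.

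**Figure D3:**
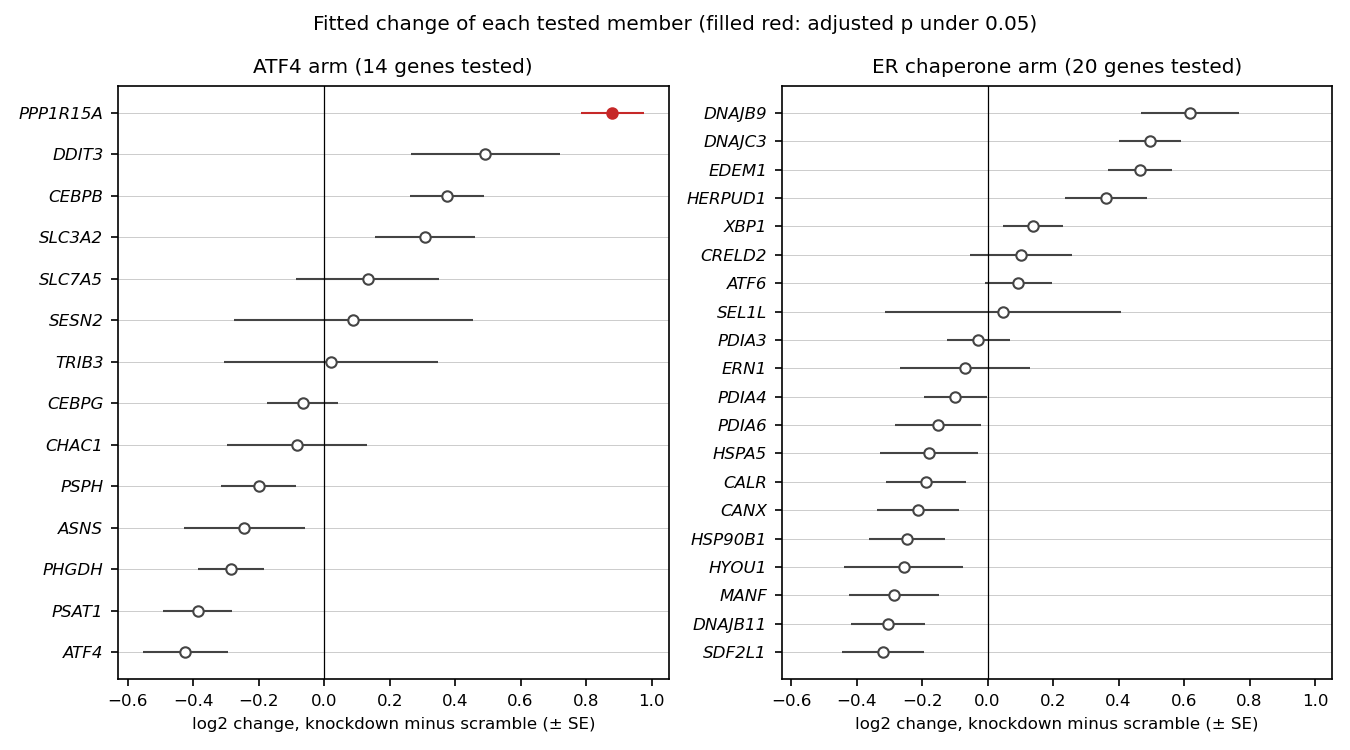
Fitted log2 change, knockdown minus scramble, with its SE for the 14 tested genes of the ATF4 arm and the 20 of the ER chaperone arm. PPP1R15A at 0.88 is the only filled point, that is, the only gene with an adjusted p under 0.05, and TRIB3, SESN2 and SEL1L have the widest error bars.

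Set side by side, the arms had similar medians over both hairpins and opposite ones with hairpin 7. The median log2 change was -0.02 over the 14 tested genes of the ATF4 arm and -0.08 over the 20 of the ER chaperone arm, beside -0.01 over all genes tested. With hairpin 1 the medians were -0.23 for the ATF4 arm and 0.001 for the ER chaperone arm (all genes 0.007). With hairpin 7 they were 0.25 for the ATF4 arm and -0.23 for the ER chaperone arm (all genes -0.03). With hairpin 1, 10 of 14 genes of the ATF4 arm lay below 0 (49.0% of all genes) and 10 of 20 of the ER chaperone arm above (50.9%). With hairpin 7, 10 of 14 lay above 0 (47.3%) and 13 of 20 below (52.6%), while over both hairpins 7 of 14 and 8 of 20 were above (48.3%). The ATF4 arm thus lay 0.23 below the ER chaperone arm with hairpin 1 and 0.47 above it with hairpin 7. The hairpin comparisons share the scramble libraries, each hairpin is 1 library, and the members are not replicates, so these differences have no test. With VLDLR included the ATF4 arm stood at -0.18 with hairpin 1 and 0.35 with hairpin 7.

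Compared directly, hairpin 7 was above hairpin 1 in 11 of the 14 tested genes of the ATF4 arm, or 78.6%, beside 45.7% of all genes. The exceptions were ATF4, PSPH and CEBPB. In the ER chaperone arm hairpin 7 was below hairpin 1 in 14 of 20 genes, or 70.0%, beside 53.9% of all genes. The exceptions there were DNAJB9, DNAJC3, HERPUD1, EDEM1, ATF6 and PDIA3, whose gaps ran from 0.02 for DNAJC3 to 0.30 for DNAJB9 on the log2 scale. Of the lists taken up later, hairpin 7 was below hairpin 1 in 14 of 16 genes of eIF2 and its partners and 18 of 26 of ER-associated degradation. It was so in 9 of 13 sensors and relatives, 11 of 20 other chaperones, 17 of 33 translocon list genes and 11 of 23 isomerases. Hairpin 7 was above hairpin 1 in 12 of 20 other ATF4 targets and 6 of 13 amino acid transporter genes. The hairpins lay on opposite sides of both scramble libraries for 9 members, or 26.5%, beside 19.0% of all genes, and 5 of these 9 were in the ATF4 arm with hairpin 7 as the higher one (TRIB3, ASNS, SESN2, SLC7A5 and CEBPG; 8.31% of all genes). HSPA5, CRELD2 and SEL1L had hairpin 7 as the lower one (10.7% of all genes). Whether the hairpins differ beyond the spread between cultures was not tested, since each is 1 library. The residual NIPBL level was 30.9% (hairpin 1) and 39.0% (hairpin 7) of scramble.

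The library scaling bears on the size of the hairpin 7 values. The sum of FPKM over gene rows was 618833 with hairpin 7 and between 668847 and 685330 in the other libraries. Scaled to an equal sum, the median over all genes with hairpin 7 moved from -0.03 to 0.08, the ER chaperone arm from -0.23 to -0.12 and the ATF4 arm from 0.25 to 0.35. Quantile normalization gave -0.11 for the ER chaperone arm and 0.24 for the ATF4 arm with hairpin 7. Under these scalings and with each library centred on its median (-0.25 and 0.23) the ER chaperone arm kept a negative and the ATF4 arm a positive median with hairpin 7. The ER chaperone median with hairpin 1, near 0, was between -0.03 and -0.007 under the 3 scalings. Hairpin 7 was below hairpin 1 in 12 of 20 ER chaperone genes with equal sums, 13 with quantile normalization and 14 with median centring. In the ATF4 arm hairpin 7 was above hairpin 1 in 12, 12 and 11 of the 14 tested genes. The shares of all genes under these scalings are not given.

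The genes with an ER stress element of either form, 10 in all, were set beside the 9 others of the ER chaperone arm whose promoters were searched, which leaves out PDIA3. Their median log2 difference from scramble was -0.01 with hairpin 1 and -0.32 with hairpin 7, and 8 of 10 lay below 0 with hairpin 7, HERPUD1 and XBP1 being above. The 9 others had medians of 0.04 with hairpin 1 and -0.16 with hairpin 7, with 5 of 9 below 0. Of all genes 52.6% lay below 0 with hairpin 7. Since hairpin 7 is 1 library, the difference between the sets was not tested. The first set was also the more abundant, with a median scramble level of 161 FPKM against 19.5 FPKM. DNAJB9, DNAJC3 and EDEM1, known as targets of spliced XBP1, held neither form in the window.

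Genes around the ATF4 arm were followed in 3 further lists. The first held 14 genes for eIF2, its kinases, exchange factor and phosphatase partners, and DELE1 and OMA1, which relay mitochondrial stress to an eIF2 kinase. Of these 16 genes 0 passed, beside 2.56% of all genes (limma). At an unadjusted p under 0.05 (limma) 1 was higher and 2 were lower, or 18.8% beside 26.4% of all genes. The medians of these 16 genes were 0.02 with hairpin 1 and -0.17 with hairpin 7. EIF2AK4, which encodes the amino acid sensing kinase GCN2, was at 56.6 and 59.5 FPKM in scramble and 44.2 and 41.5 FPKM with hairpins 1 and 7, and EIF2B3, an exchange factor subunit gene, at 21.1 and 22.5 FPKM in scramble and 16.5 and 13.2 FPKM (limma, adjusted p = 0.0829 and 0.104). Both hairpins were below both scramble libraries for EIF2AK4 and EIF2B3. Of 25 other genes known as ATF4 targets 20 were tested, and of the 20, 1 rose and 0 fell, beside 2.56% of all genes that passed (limma). At an unadjusted p under 0.05 there were 4 higher and 6 lower of 20, beside 26.4% of all genes, and in 10 of 20 both hairpins were below both scramble libraries (30.8% of all genes). The list had medians of -0.29 with hairpin 1 and -0.02 with hairpin 7. The gene that rose was ATF3, a stress factor gene, with 15.1 ± 0.417 FPKM in scramble and 178 ± 2.57 FPKM in knockdown (SD, n = 2 each; limma, adjusted p = 0.00358). SQSTM1, an autophagy receptor gene, was at 102 and 105 FPKM in scramble and 210.4 and 312 FPKM with hairpins 1 and 7 (limma, adjusted p = 0.0529).

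Amino acid transporter genes outside the 35 held 13 tested members of 20, of which 1 rose and 1 fell, or 15.4% beside 2.56% of all genes (limma). At an unadjusted p under 0.05 there were 3 higher and 5 lower, or 61.5% beside 26.4%. SLC7A11, which imports cystine for glutathione synthesis, was at 13.1 and 13.5 FPKM in scramble and rose to 23.7 FPKM with hairpin 1 and 25.2 FPKM with hairpin 7 (log2 change 0.83 ± 0.10, SE, limma, adjusted p = 0.0334). SLC38A2, an importer of small neutral amino acids, fell from 282 and 279 FPKM to 163 FPKM with hairpin 1 and 172 FPKM with hairpin 7 (log2 change -0.74 ± 0.09, SE, limma, adjusted p = 0.0388). Both are known ATF4 targets, and they moved in opposite directions with the hairpins close to each other. The list's medians were -0.19 with hairpin 1 and -0.07 with hairpin 7.

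**Figure D4:**
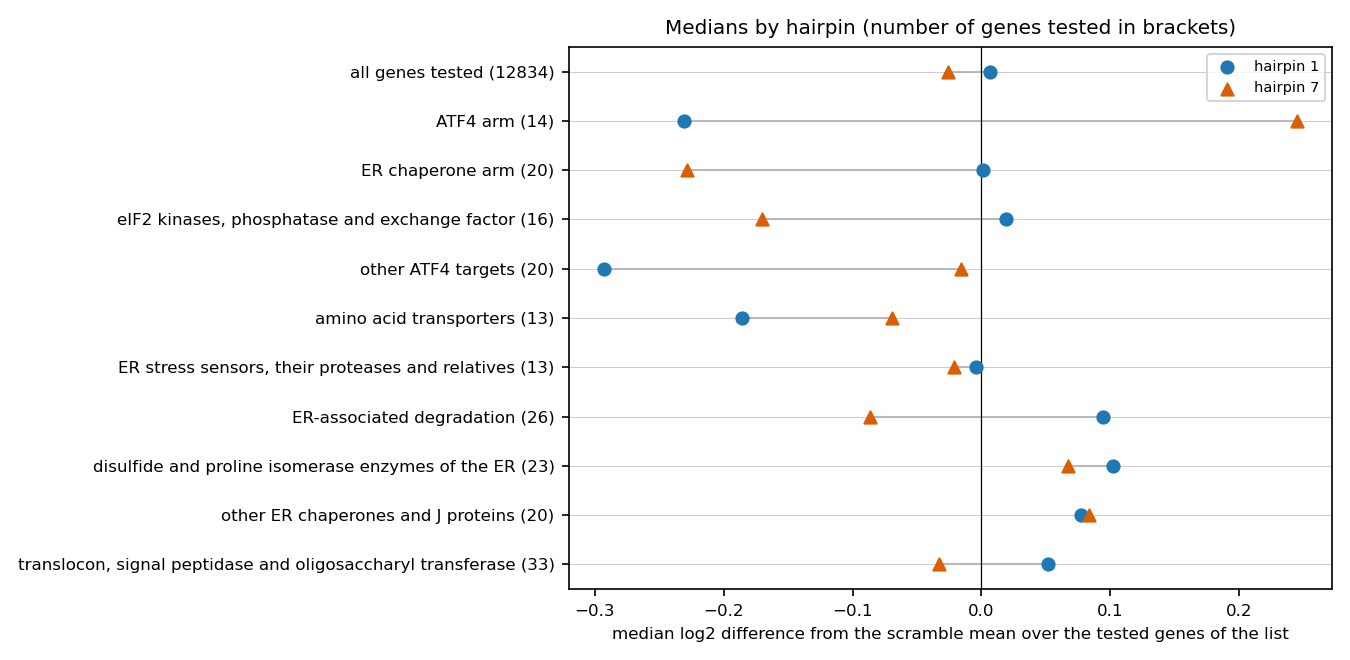
Median log2 difference from the scramble mean with hairpin 1 (circles) and hairpin 7 (triangles) over the tested genes of each list, with all genes tested at the top. The ATF4 arm spans from -0.23 to 0.25 and the ER chaperone arm from 0.001 to -0.23, while the median of all genes stays between -0.03 and 0.007.

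Around the ER chaperone arm 5 lists were followed. Over all genes tested 2.56% passed, and 26.4% had an unadjusted p under 0.05 (limma). Of 13 tested genes of ER stress sensors, their proteases and relatives, 1 fell and 0 rose (0 higher and 2 lower at an unadjusted p under 0.05, or 15.4%; limma). It was MBTPS2, which encodes the site-2 protease that frees ATF6 from the Golgi membrane, at 17.5 and 17.8 FPKM in scramble and 10.6 and 10.1 FPKM with hairpins 1 and 7 (log2 change -0.72 ± 0.10, SE, limma, adjusted p = 0.0444). The cell death gene BAK1 of the same list had a log2 change of -0.33 (limma, adjusted p = 0.119). Of 26 tested genes of ER-associated degradation outside the 35, 0 passed. At an unadjusted p under 0.05 (limma) 3 were higher and 1 lower, or 15.4%. The ubiquitin-conjugating enzyme gene UBE2G2 had a log2 change of -0.44 and EDEM2, a relative of EDEM1, of 0.46 (limma, adjusted p = 0.0752 and 0.0781).

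Among 23 tested disulfide and proline isomerase genes of the ER 1 rose and 0 fell (3 higher and 0 lower at an unadjusted p under 0.05, or 13.0%; limma). It was PPIC, a cyclophilin gene, at 7.39 and 7.99 FPKM in scramble and 14.1 and 17.0 FPKM with hairpins 1 and 7 (log2 change 0.92 ± 0.13, SE, limma, adjusted p = 0.0468). TMX4, a transmembrane thioredoxin gene, had a log2 change of 0.75 and did not pass (limma, adjusted p = 0.0543). Of 20 tested other ER chaperone and J protein genes 1 rose and 0 fell (4 higher and 0 lower of 20 at an unadjusted p under 0.05; limma). It was DNAJC10, which encodes ERdj5, a J protein with disulfide reductase activity, at 11.8 and 12.5 FPKM in scramble and 26.9 and 22.3 FPKM with hairpins 1 and 7 (log2 change 0.95 ± 0.13, SE, limma, adjusted p = 0.0423). RCN1, a calcium-binding protein gene, had a log2 change of 0.28 (limma, adjusted p = 0.144).

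Of 33 genes of the translocon, signal peptidase and oligosaccharyl transferase, through which proteins enter the ER and receive sugars, 0 passed. At an unadjusted p under 0.05 (limma) 2 were higher and 0 lower, or 6.06% beside 26.4% of all genes. SEC61G, a translocon subunit gene, was at 493 and 506 FPKM in scramble and 655 and 739 FPKM with hairpins 1 and 7 (limma, adjusted p = 0.0924), and OST4, an oligosaccharyl transferase subunit gene, had a log2 change of 0.27 (limma, adjusted p = 0.151). The medians with hairpin 7 were -0.02 for sensors and relatives, -0.09 for degradation, 0.07 for isomerases, 0.08 for other chaperones and -0.03 for the translocon list, beside -0.23 for the ER chaperone arm. The 6 genes that passed in these lists outside the 35 were ATF3, SLC7A11, SLC38A2, MBTPS2, PPIC and DNAJC10. Fits with a scramble library left out cannot show whether these calls depend on it, since the spread then came from the hairpin pair alone.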

How the data were processed

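RNA sequencing was measured in 4 libraries of NUGC3 cells. The authors deposited FPKM per gene with 2 decimals, and the submitters' processing notes name STAR and RSEM, with neither version nor role. The build, annotation, strand setting and filters were not given in the sources used here. Since depth is unknown, no counting intervals are given. Of 344810 rows, 291033 had no gene name, held between 8.47% and 9.27% of a library's FPKM and stayed out. How reads shared by near-identical copies were divided is not stated, so values of genes with copies are uncertain.

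Log2(FPKM + 1) was tested with limma 3.58.1 in R 4.3.3 (lmFit, eBayes with a mean trend; 2 residual and 2.87 prior degrees of freedom) over the 12834 genes averaging 1 FPKM or more. P-values were two-sided and Benjamini-Hochberg adjusted over all of them, with a threshold of 0.05. With 2 libraries a group, the smallest p an exact permutation could give is 0.333. Replicate numbers follow sample order and pair nothing. The fit was tested only on simulated data whose spread was equal in both groups. That does not show how it behaves when the 2 knockdown libraries carry different hairpins.

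Members and lists, 8 further lists with 185 entries included, were chosen with earlier results of these data known. Named are NIPBL, all 35 members, and of each further list the genes that passed, or the 2 with the smallest p where fewer than 2 did. Older symbols were matched by identifier. Promoter sequences are from RefSeq (GRCh38.p14) and chromosomes from GENCODE 29. Alternatives were 2 other pseudocounts, 2 other filters, protein-coding genes alone, 3 scalings, no mean trend and leaving out each library.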

Additional observations from a re-analysis of the deposited data

Results flagged for a closer look

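For 9 of the 34 tested members hairpin 1 and hairpin 7 lay on opposite sides of both scramble libraries. The difference between the hairpins was not tested, since each is 1 library, and 19.0% of all genes showed such an arrangement. In the ATF4 arm hairpin 7 minus hairpin 1 was 1.02 for SESN2, 0.98 for TRIB3, 0.63 for SLC7A5, 0.51 for ASNS and 0.15 for CEBPG on the log2(FPKM + 1) scale. In the ER chaperone arm it was 0.087 for PDIA3, -0.38 for HSPA5, -0.40 for CRELD2 and -1.08 for SEL1L. The arrangement was seen for TRIB3, SESN2, SLC7A5 and SEL1L under each of the 3 scalings tried. It was lost for HSPA5 under all 3, for CRELD2 with libraries scaled to the same sum, for ASNS and PDIA3 with libraries centred on their median, and for CEBPG with quantile normalization or median centring.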

How the results depend on the processing

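PPP1R15A was the only member passing under both other pseudocounts, the higher filter, protein-coding genes alone, the 3 scalings and the fit without a mean trend. With no filter on low values 0 members (10 at an unadjusted p under 0.05; limma) and 1 gene passed, and NIPBL did not (log2 change -1.42, limma, adjusted p = 0.118), where 25230 genes were tested. Leaving out 1 library gave between 0 and 23 members and between 0 and 4532 genes passing, NIPBL between -1.57 and -1.27 and lost without either scramble library (limma, adjusted p = 0.257 and 0.261). The arm medians then ranged from -0.23 to 0.25 for the ATF4 arm, from -0.23 to 0.001 for the ER chaperone arm and from -0.23 to 0.47 for their difference. A lone library is assumed there to vary like those of the other group. Signs turned when 1 library was left out for TRIB3 (-0.47 to 0.51), ASNS (-0.50 to 0.010), CHAC1 (-0.31 to 0.14), SESN2 (-0.42 to 0.60), SLC7A5 (-0.18 to 0.45), CEBPG (-0.14 to 0.0065), HSPA5 (-0.37 to 0.0098), CRELD2 (-0.10 to 0.30), PDIA3 (-0.071 to 0.015), SEL1L (-0.49 to 0.59) and ERN1 (-0.28 to 0.14). PDIA3 also turned to 0.025 with quantile normalization and 0.018 with libraries scaled to the same sum. No paired analysis was possible because the labels give the groups no shared replicate numbers. The unknown depth limits the low genes VLDLR, SESN2, ERN1 and CHAC1 most.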
